A study of Homo sapiens with 28 samples.

Results

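Mimics of miR-99b-5p and miR-100-3p, microRNAs from opposite arms of one family, were compared directly in Kelly cells, an established neuroblastoma line with an amplified MYCN gene. The comparison took the 4 libraries of the miR-99b-5p mimic and the 4 libraries of the miR-100-3p mimic, 8 of the 28 RNA sequencing libraries of the series, by the names of their columns in the deposited count table. Cells of every group carried 25 nM of a synthetic mimic, or of a scrambled sequence in the control group, and messenger RNA was collected after 48 h. The other 4 groups of the series carried mimics of unrelated microRNAs, and they entered the fit without being described here. The miR-99b-5p libraries are numbered 2, 3, 4 and 7 in their titles, the miR-100-3p libraries 1, 2, 3 and 4, and the controls 1, 2, 4 and 5. No label states that libraries of one group are from different cultures, so p-values measure the spread between these libraries, which may be technical. All groups came from 1 cell line, the same mimic dose and 1 time point. The level of each mimic inside the cells was not measured by these libraries, and microRNAs made by the cells themselves are not seen in them.

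A microRNA precursor folds into a hairpin with a 5p arm and a 3p arm. In the miR-99/100 family the 5p arm is the usual guide strand, which the Argonaute protein keeps to find messenger RNAs, and the 3p arm is the passenger strand, of which less is usually kept. A guide finds its targets mainly through its seed, bases 2 to 8, paired with a complementary stretch in the 3′ UTR of a messenger RNA, and pairing lowers the level or the translation of that messenger RNA. The 5p arm of this family is best known for repressing MTOR and other growth genes, and the genes of the family lie in clusters with let-7 and miR-125 genes.

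The mature sequences, from RefSeq on GRCh38.p14, are shown because the seeds separate the arms. Capitals mark the seed.
miR-99b-5p, the first mimic: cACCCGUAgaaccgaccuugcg
miR-100-5p: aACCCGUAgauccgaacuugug
miR-99a-5p: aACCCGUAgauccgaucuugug
miR-100-3p, the second mimic: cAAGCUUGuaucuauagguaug
miR-99b-3p: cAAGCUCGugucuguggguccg
miR-99a-3p: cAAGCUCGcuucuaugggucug

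The 5p arms of miR-99b, miR-100 and miR-99a share 1 seed, ACCCGUA, and its site in a UTR reads TACGGGT. Counted from the 5′ end, miR-99b-5p differs from miR-100-5p by A1C, U11A, A16C and U21C, written with the miR-100-5p base first, and none of these positions is in the seed. The seed of miR-100-3p is AAGCUUG, with the site CAAGCTT, and it is not shared with the 3p arms of its relatives. Both miR-99b-3p and miR-99a-3p carry U7C within the seed, with the miR-100-3p base first, and their site reads CGAGCTT. The 2 mimics have no seed in common. miR-99b-5p is encoded at chr19:51692618-51692639 on the plus strand, and miR-100-3p at chr11:122152240-122152261 on the minus strand.

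The libraries held 14684578 to 18983996 expected counts with miR-99b-5p, 11950836 to 21120611 with miR-100-3p and 13038954 to 15215130 in the control. The share of mitochondrially encoded mRNAs was 8.41% to 9.97% with miR-99b-5p and 8.06% to 13.4% with miR-100-3p, whose library 3 was the highest. The slope of a library's log2 deviations on transcript GC content ran from -2.05 (miR-99b-5p library 2) to 0.11 and from -1.70 to 1.49. The 10 neuroblastoma markers were all present, with a summed level of 8267 to 10224 CPM (counts scaled to library size) with miR-99b-5p, 11351 to 13359 with miR-100-3p and 11574 to 12603 in the control. MYCN weighs most in this sum, with means of 3429, 6379.7 and 5053 CPM in the 3 groups. PHOX2A, CHGA and CHGB had higher means with miR-99b-5p than with miR-100-3p, and the other markers lower ones. Of 21 listed markers of fibroblasts, endothelium, epithelium, glia, blood and liver, 17 were matched to a row of the count table. The blood markers PTPRC, CD3E, HBA1 and HBB were not matched. Of the 17, 5 were at 0 in every miR-99b-5p library and 5 in every miR-100-3p library. Their summed level was 8.66 to 10.2 CPM, 14.6 to 17.1 CPM and 16.0 to 18.5 CPM in the 3 groups. The part of these differences in the results below was not tested.

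Of 15058 genes tested, 3528 (23.4%) were called different between the mimics, meaning an adjusted p under 0.05 by edgeR's quasi-likelihood test. They split into 1797 (11.9%) higher and 1731 (11.5%) lower with miR-99b-5p. At least 2-fold differences were fewer and leaned to the lower side, with 152 genes (1.01%) higher and 270 (1.79%) lower. With a mean CPM of at least 5 as the filter, these numbers were 68 and 104. In 2809 of the called genes (18.7% of all tested) the 4 libraries of each mimic did not overlap. Against the scrambled control, 1221 genes (8.11%) were called higher and 1277 (8.48%) lower with miR-99b-5p, of which 199 (1.32% of all tested) were at least 2-fold lower. With miR-100-3p 897 (5.96%) were called, 437 (2.9%) higher and 460 (3.05%) lower. The direct comparison and these 2 share libraries, so their values stand side by side and their overlap was not counted. The number called with miR-100-3p against the control, 897, was 551, 575 and 597 without miR-100-3p library 3, control library 2 and control library 5. For the higher genes among them the numbers were 252, 277 and 274, and for the lower ones 299 and 298 without miR-100-3p library 3 and control library 2. In what follows a log2 difference is miR-99b-5p minus miR-100-3p, given with its standard error, and CPM are given in the order of the library numbers.

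**Figure D1:**
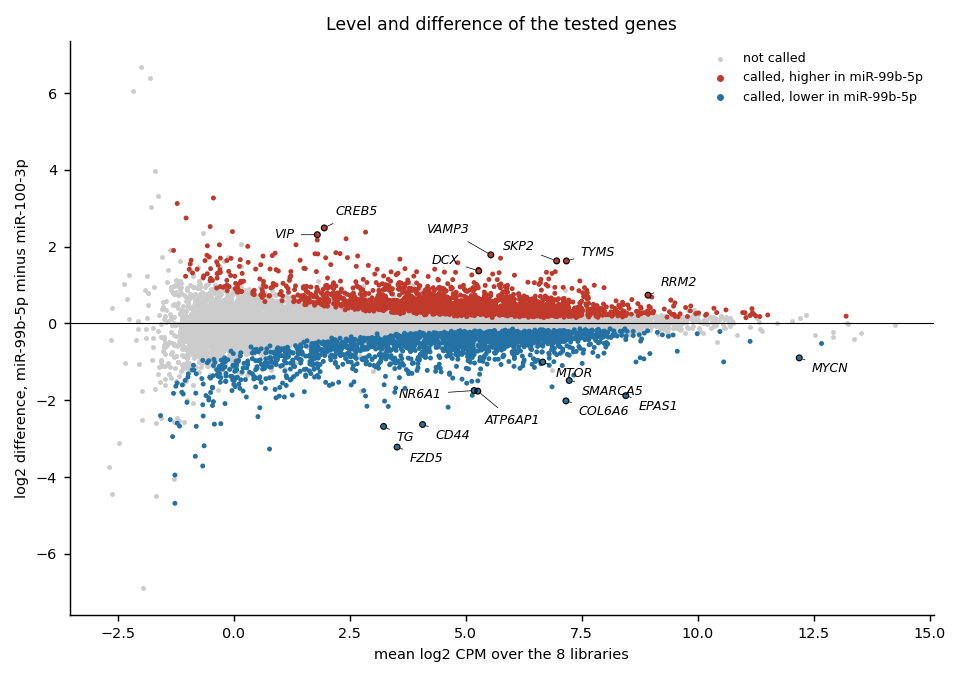
Each point is 1 of the 15058 tested genes, with its mean log2 CPM over the 8 libraries on the x axis and its log2 difference, miR-99b-5p minus miR-100-3p, on the y axis. Called genes are red (1797 higher) or blue (1731 lower) and labelled genes are circled, from FZD5 at -3.22 to CREB5 at 2.49.

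Among genes with a mean of at least 4 CPM and no overlap between the mimics, FZD5 (ENSG00000163251) was lowest with miR-99b-5p. FZD5, a Frizzled receptor for Wnt ligands, stood at 3.26, 2.48, 2.73 and 6.94 CPM with miR-99b-5p and at 32.3, 32.7, 39.2 and 39.2 CPM with miR-100-3p. The control libraries lay between, at 16.2 to 17.6 CPM, and the miR-99b-5p library 7 was the highest of its group. The difference was -3.22 ± 0.20 (adjusted p = 4.21e-12), 9.31-fold, and it was made of a fall with miR-99b-5p against the control (-2.13 ± 0.20, adjusted p = 1.84e-08) and a rise with miR-100-3p (1.09 ± 0.18, adjusted p = 0.00023).

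CD44 (ENSG00000026508), the cell surface receptor for hyaluronan, followed the same order of groups. It was at 7.13, 6.01, 7.26 and 6.57 CPM with miR-99b-5p, 35.0, 35.4, 51.9 and 44.6 CPM with miR-100-3p and 13.0 to 19.7 CPM in the control. No library of one group reached into another. The difference was -2.63 ± 0.16 (adjusted p = 2.8e-12), with -1.27 ± 0.16 for miR-99b-5p and 1.36 ± 0.15 for miR-100-3p against the control (adjusted p = 2.49e-06 and 1.46e-06).

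COL6A6 (ENSG00000206384), a collagen VI chain and the most abundant of this group after EPAS1, stood at 87.1, 63.2, 62.7 and 73.8 CPM against 261, 290.2, 332 and 277 CPM, with 147 to 156 CPM in the control. It was -1.06 ± 0.12 with miR-99b-5p and 0.95 ± 0.12 with miR-100-3p against the control, and -2.02 ± 0.12 between the mimics (adjusted p = 2.18e-12). SERPINB9, an inhibitor of granzyme B (-2.18 ± 0.16), the orphan nuclear receptor NR4A3 (-2.16 ± 0.17), the cell death protein HRK (-2.02 ± 0.15) and CAMK2A, a subunit of the calcium- and calmodulin-dependent kinase II (-1.89 ± 0.17), were also called lower with miR-99b-5p and higher with miR-100-3p against the control. So was ADRA2A, the alpha-2A adrenergic receptor (-2.16 ± 0.20). For TG, thyroglobulin, the miR-99b-5p libraries stood at 3.01 to 4.68 CPM, the miR-100-3p libraries at 19.0 to 27.9 and the controls at 13.7 to 18.3 (-2.68 ± 0.16, adjusted p = 2.43e-12). The TG rise with miR-100-3p against the control (0.53 ± 0.14, adjusted p = 0.0232) was not called without miR-100-3p library 3 or 4 or control library 1 or 2. EPAS1, the last of the 10, is described with the oxygen genes.

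Of the 10 largest differences in the other direction, CREB5 (ENSG00000146592), a transcription factor that binds cAMP response elements, led with 2.49 ± 0.21 (adjusted p = 1.19e-09). It was at 9.7, 9.49, 7.86 and 8.66 CPM with miR-99b-5p and 2.22, 2.02, 1.23 and 0.981 CPM with miR-100-3p. The control libraries, at 1.95 to 2.76 CPM, stood with or just above those of miR-100-3p, and the rise with miR-99b-5p against the control was 1.82 ± 0.20 (adjusted p = 1.78e-07).

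VIP (ENSG00000146469), the vasoactive intestinal peptide made by some neuroblastic cells, stood at 8.55, 7.7, 6.93 and 6.51 CPM with miR-99b-5p. With miR-100-3p it was at 1.11, 1.6, 1.94 and 1.4 CPM and in the control at 1.22 to 1.81 CPM, so only the miR-99b-5p libraries stood apart. The difference was 2.31 ± 0.17 (adjusted p = 1.65e-10). SERTM2, a small membrane protein (2.21 ± 0.21), and PHLDA1, a pleckstrin homology-like protein (1.82 ± 0.27), showed the same layout, with miR-100-3p at 1.68 to 3.96 and 2.09 to 3.13 CPM and the control at 2.05 to 2.68 and 2.34 to 2.53 CPM.

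For the matrix protein MFAP4 (2.38 ± 0.26), the integrin chain ITGB8 (2.17 ± 0.26) and the microtubule-binding MAP7 (1.76 ± 0.15), the control means lay between those of the mimics. All 3 rose with miR-99b-5p against the control (1.25 ± 0.24, 1.22 ± 0.24 and 1.16 ± 0.15). BMT2, an S-adenosylmethionine sensor upstream of mTOR complex 1, was at 4.92 to 7.79 CPM with miR-99b-5p, 1.21 to 2.27 CPM with miR-100-3p and 2.94 to 5.06 CPM in the control (1.81 ± 0.24). LINC00473, a long noncoding RNA whose identifier is absent from the reference names used here, was higher by 1.84 ± 0.25. VAMP3 completes the 10 and is described with the seed sites. Most of these genes were low, so that 1 CPM here stands for 12 to 21 counts in a library.

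**Figure D2:**
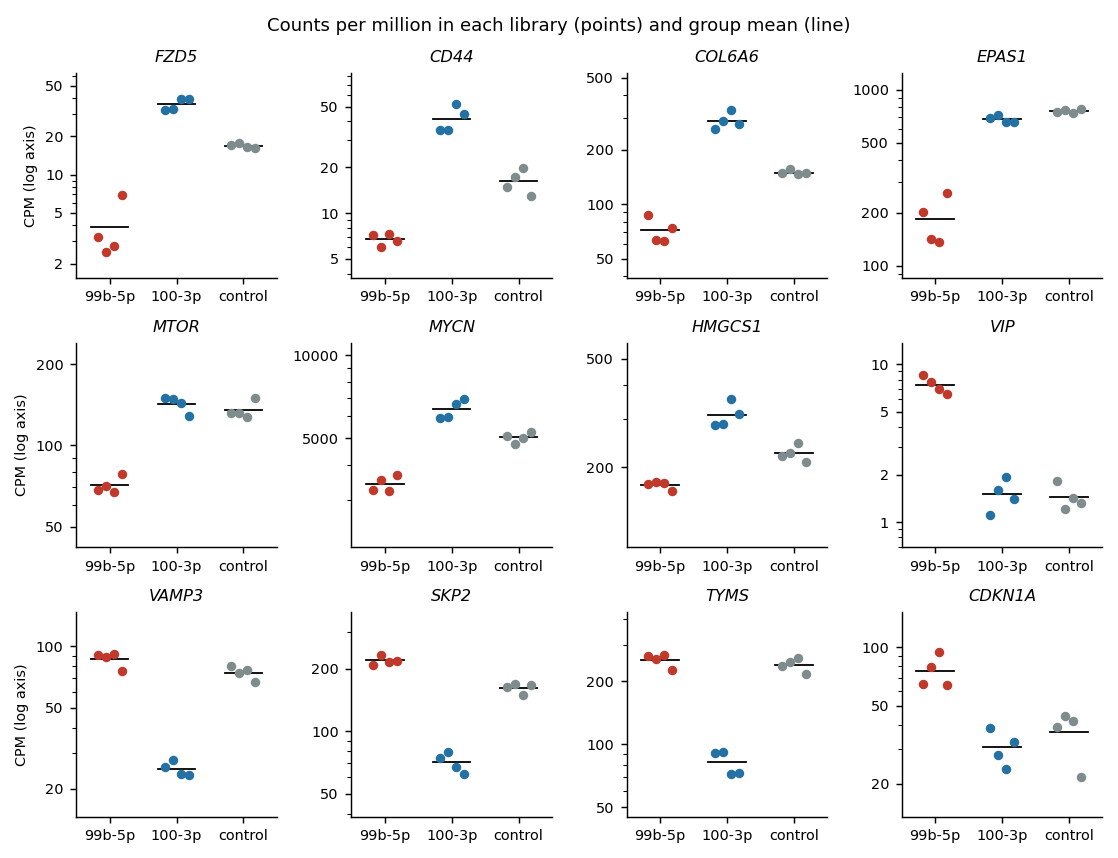
Points are CPM in single libraries on a log axis, for miR-99b-5p (red), miR-100-3p (blue) and the scrambled control (grey), with a line at the mean of the 4 libraries. The genes were chosen for display, and FZD5, CD44, COL6A6, EPAS1, VIP and VAMP3 were named by a rule that requires no overlap between the mimics. The mimics do not overlap in any of the 12 panels. For VAMP3, SKP2 and TYMS the low group is miR-100-3p, and for EPAS1, MTOR and FZD5 it is miR-99b-5p.

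Genes with a miR-99b-5p site were lower with miR-99b-5p. A 3′ UTR of at least 50 bases was found for 12535 tested genes, of which 12.7% were called lower and 13.4% higher. The heptamer TACGGGT occurred in the longest UTR of 158 of them, and 62 (39.2%) were called lower with miR-99b-5p and 12 (7.59%) higher, with a median log2 difference of -0.23. Among the 12377 genes without it, 12.3% were called lower and the median was 0.01. The share differed by the type of match. It was 22.0% for the 586 genes with only the hexamer ACGGGT, 32.4% for 111 with the hexamer followed by A, 37.7% for 122 with the heptamer and 44.4% for 36 with the heptamer followed by A, against 11.7% for 11680 genes with no hexamer.

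**Figure D3:**
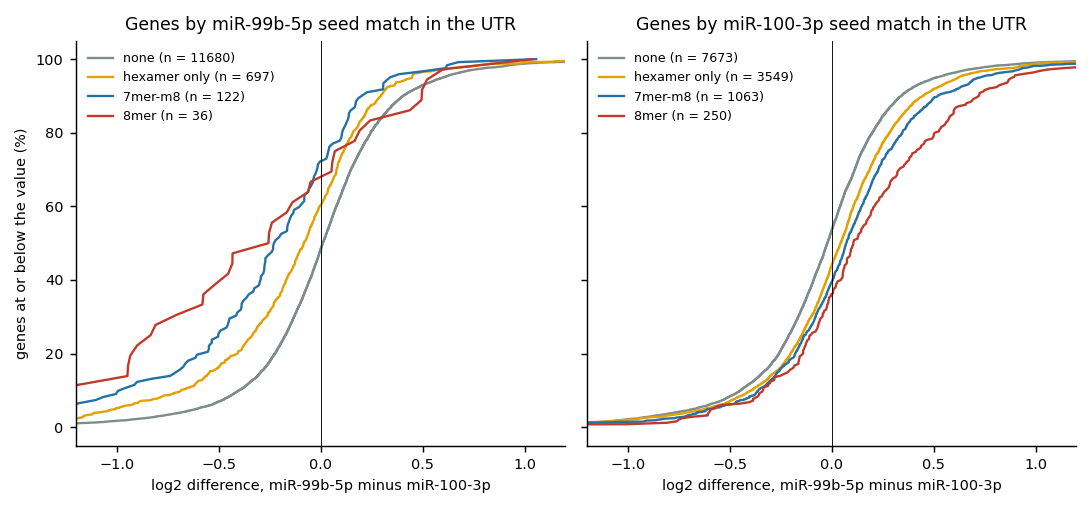
Cumulative share of genes (y axis, %) at or below each log2 difference, miR-99b-5p minus miR-100-3p (x axis), by the best seed match in the UTR, where 8mer is the heptamer followed by A, 7mer-m8 the heptamer alone, and hexamer only includes the hexamer followed by A. Curves of genes with miR-99b-5p matches lie to the left (8mer median -0.26, 7mer-m8 -0.23) and those of genes with miR-100-3p matches to the right (8mer 0.11, 7mer-m8 0.07).

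Among the 62 called genes with this heptamer, the sites of the 6 with the smallest p are shown in GENCODE v29 UTRs on GRCh38, read along the messenger RNA, with the heptamer in capitals.
NR6A1, chr9:124520947-124520953, minus strand: tttctttctggtgaaatgtTACGGGTacca
FZD5, chr2:207763145-207763151, minus strand: gagatttggtgacttttgaTACGGGTttgg
BAZ2A, chr12:56597997-56598003, minus strand: ataatgtaaaactatcgtgTACGGGTtcct
BAZ2A, chr12:56597042-56597048, minus strand: agcccctcccttcagagatTACGGGTactt
MTOR, chr1:11107184-11107190, minus strand: agatccataactttagaaaTACGGGTtttg
SUDS3, chr12:118415290-118415296, plus strand: gattatctgggtaatctttTACGGGTggga
SMARCA5, chr4:143553235-143553241, plus strand: aaccagtagttctttaattTACGGGTcttc

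BAZ2A, part of the nucleolar remodelling complex that silences ribosomal DNA, holds 2 of these heptamers. It stood at 95.9, 94.5, 88.1 and 127 CPM with miR-99b-5p and 284, 267, 243 and 237 CPM with miR-100-3p (-1.34 ± 0.09, adjusted p = 4.12e-11). The controls, at 222 to 262 CPM, overlapped the miR-100-3p libraries.

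MTOR (ENSG00000198793), the kinase at the centre of nutrient and growth signalling, was at 68.6, 71.0, 67.1 and 78.1 CPM with miR-99b-5p against 150.1, 149, 144 and 129 CPM with miR-100-3p. The control was at 127 to 150.2 CPM. The difference was -1.0 ± 0.07, 2.01-fold (adjusted p = 1.13e-10), and against the control MTOR was called with miR-99b-5p only (-0.93 ± 0.07, adjusted p = 7.83e-10; miR-100-3p adjusted p = 0.625).

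SMARCA5, the ATPase of ISWI chromatin remodellers, stood at 97.3, 80.2, 80.3 and 105 and 218, 265, 315 and 218 CPM (-1.48 ± 0.12). SUDS3, a member of the Sin3 histone deacetylase complex, stood at 29.3, 23.4, 25.0 and 28.3 and 60.5, 68.0, 57.2 and 55.1 CPM (-1.18 ± 0.09). The control libraries of both, at 209 to 239 and 56.7 to 64.6 CPM, overlapped those of miR-100-3p and lay above every miR-99b-5p library. NR6A1, the germ cell nuclear factor, fell with miR-99b-5p (-1.30 ± 0.10) and rose with miR-100-3p (0.45 ± 0.10) against the control, for a difference of -1.75 ± 0.10. FZD5 has a site for each mimic and was lower than the control with one and higher with the other, as given above. Its miR-100-3p site reads as follows.
FZD5, chr2:207763878-207763884, minus strand: gtgtaattgtgggcatgtaCAAGCTTaaat

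Members of the gene lists here and below were chosen with earlier results of these data known, so the shares describe those members only. Of 27 tested genes reported as 5p targets of the family, 18 (66.7%) were called lower with miR-99b-5p and 1 higher, with a median of -0.55, beside 11.5% lower and a median of 0.00 over all genes. Against the control, 21 were lower with miR-99b-5p, while with miR-100-3p 2 were lower and 2 higher. Of the 23 with the heptamer, 16 were called lower and 0 higher. Of the 4 without it, 2 were called lower and 1 higher. Beside the genes above, SMARCD1, a BAF complex subunit, was at 70.4, 60.5, 62.8 and 67.8 against 212, 206, 195 and 208 CPM (-1.65 ± 0.06, adjusted p = 5.21e-16), the smallest p of the list. No miR-99b-5p heptamer was found for SMARCD1. TRIM71, a ubiquitin ligase of stem cells that is itself a let-7 target, was at 20.2, 14.8, 14.4 and 25.4 against 76.7, 71.8, 62.0 and 63.0 CPM (-1.87 ± 0.15). FGFR3, a fibroblast growth factor receptor at 1.37 to 2.46 against 2.77 to 5.56 CPM, was -0.95 ± 0.24 (adjusted p = 0.004), and adjusted p was 0.0513 without miR-100-3p library 4. BMPR2, a receptor of bone morphogenetic proteins and the 1 member called higher, was named after its value was seen. It stood at 49.9 to 60.7 CPM with miR-99b-5p, 24.4 to 36.8 CPM with miR-100-3p and 45.8 to 55.9 CPM in the control. Its longest UTR holds a miR-100-3p heptamer and no miR-99b-5p heptamer. The number higher was 2 without miR-100-3p library 3 or miR-99b-5p library 7.

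The miR-100-3p heptamer is more common and went with smaller differences in the opposite direction. CAAGCTT occurred in 1313 UTRs, of which 313 (23.8%) were called higher with miR-99b-5p, that is lower with miR-100-3p, and 143 (10.9%) the other way. Their median was 0.08, and 12.1% of the 11222 genes without the heptamer were called higher. With the heptamer followed by A (250 genes) the share was 31.2% and the median 0.11, and with the hexamer AAGCTT alone (2602 genes) it was 16.4%, against 9.38% with no hexamer. Genes with this heptamer had longer UTRs, with a median of 3286 bases against 1301. In UTRs of at least 2000 bases, a limit set after seeing the data, 24.8% with and 16.4% without it were called higher, and in shorter ones 21.3% and 9.98%. Against the control, the median of the 1313 genes was -0.04 with miR-100-3p and 0.04 with miR-99b-5p. With miR-100-3p, 9.44% of them were called lower, beside 2.74% of those without the heptamer. With miR-99b-5p, 13.1% were called higher against the control, beside 8.9% without the heptamer. In UTRs of at least 2000 bases these miR-99b-5p shares were 14.2% and 13.7%, and in shorter ones 10.2% and 6.48%. UTRs with the heptamer of miR-99b-3p and miR-99a-3p, CGAGCTT, and none of miR-100-3p numbered 196. Of these, 19.4% were called higher and 14.8% lower, with a median of -0.03. In the 32 genes with sites of both mimics, 10 were lower and 4 higher with miR-99b-5p.

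Among the 313 genes with this heptamer called lower with miR-100-3p than with miR-99b-5p, the sites of the 6 with the smallest p are shown in the same way. Against the control, 124 of the 1313 genes with the heptamer were called lower with miR-100-3p.
VAMP3, chr1:7779719-7779725, plus strand: ttagaacctgctatattatCAAGCTTacct
SKP2, chr5:36182359-36182365, plus strand: tactaagtctattcagaatCAAGCTTaaaa
PDE4B, chr1:66372879-66372885, plus strand: ggttgacttgccttgatggCAAGCTTggtg
RPS6KA2, chr6:166411127-166411133, minus strand: aaaatataaacttgtttcaCAAGCTTtaat
PROX1, chr1:214040399-214040405, plus strand: cataagcagaaaaggcaaaCAAGCTTacct
PROX1, chr1:214041217-214041223, plus strand: tgtatgtgcagtatatatgCAAGCTTgtgc
RASSF3, chr12:64695102-64695108, plus strand: tcccatgtaagggactctgCAAGCTTgttg

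VAMP3 (ENSG00000049245), a vesicle SNARE of endosomal recycling also called cellubrevin, stood at 25.7, 27.7, 23.7 and 23.4 CPM with miR-100-3p and 90.5, 88.2, 91.6 and 75.9 CPM with miR-99b-5p. The control was at 66.9 to 79.7 CPM, and every miR-100-3p library was below every other. The difference of 1.79 ± 0.08 (adjusted p = 3.08e-15) came with a difference of -1.56 ± 0.08 with miR-100-3p against the control (adjusted p = 8.46e-14).

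SKP2 (ENSG00000145604), the F-box protein that marks p27 for destruction at the G1/S transition, was at 74.5, 79.4, 67.1 and 62.1 CPM with miR-100-3p and 209, 233, 215 and 218 CPM with miR-99b-5p. The control, at 149 to 168 CPM, was between them with no overlap. Against it SKP2 fell with miR-100-3p (-1.19 ± 0.09) and rose with miR-99b-5p (0.44 ± 0.08), and the difference was 1.63 ± 0.09 (adjusted p = 3.62e-13).

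The other 4 genes differed in where the control stood. RPS6KA2, a ribosomal S6 kinase, was at 28.3 to 35.7 CPM with miR-99b-5p and 11.5 to 17.2 CPM with miR-100-3p, and both were below the control at 38.5 to 44.2 CPM (1.13 ± 0.10 between the mimics). PROX1, a homeobox factor of neural and lymphatic development with 2 heptamers, fell with miR-100-3p (-0.55 ± 0.11) and rose with miR-99b-5p (0.79 ± 0.11) against the control. PDE4B, a cAMP phosphodiesterase, was at 116 to 119 CPM with miR-99b-5p and 47.0 to 59.7 CPM with miR-100-3p. The control, at 58.2 to 65.5 CPM, overlapped miR-100-3p, which was not called against it (adjusted p = 0.281), while miR-99b-5p was (0.92 ± 0.07). RASSF3, a RAS-association domain protein, fell with miR-100-3p against the control (-0.65 ± 0.08).

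**Figure D4:**
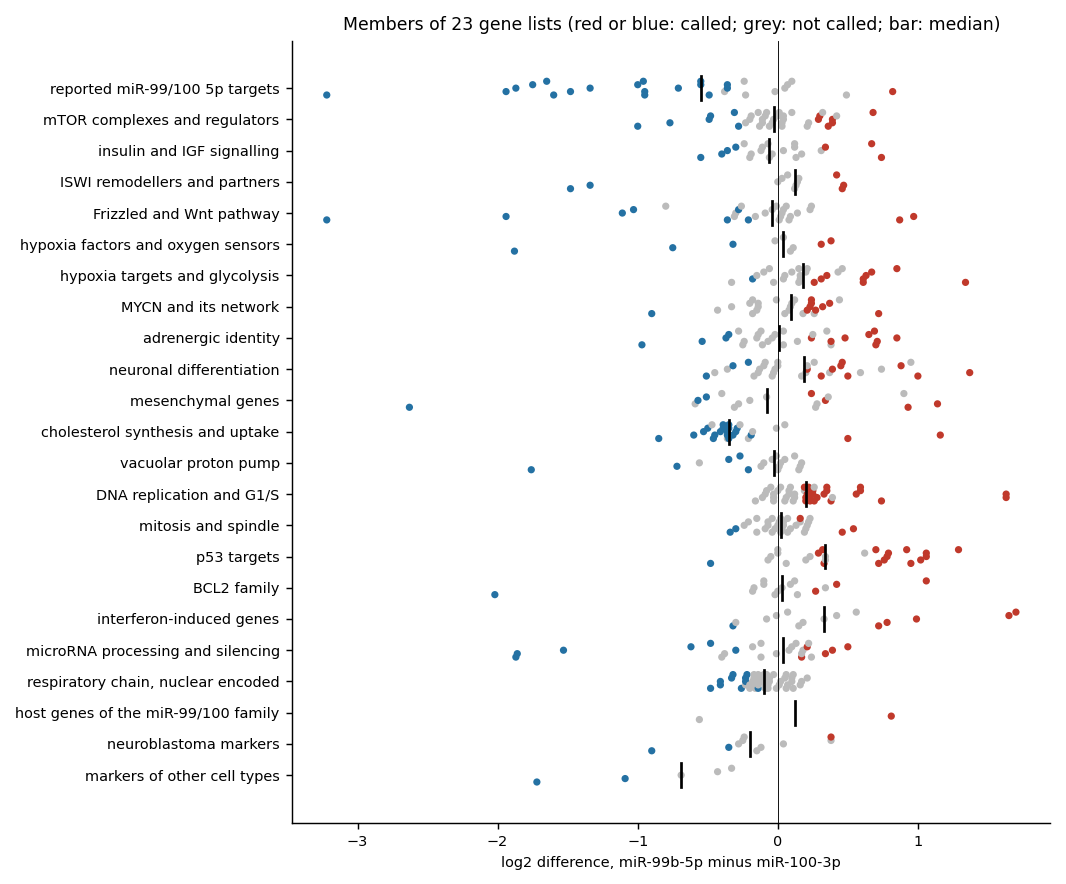
Each point is a tested member of 1 of 23 gene lists, placed by its log2 difference, miR-99b-5p minus miR-100-3p (x axis), and the black bar is the list's median. Lists and members were chosen with earlier results of these data known. Called members are red (higher with miR-99b-5p) or blue (lower); reported 5p targets (median -0.55) and cholesterol genes (-0.35) lie to the left, and p53 targets (0.34) and DNA replication genes (0.20) to the right.

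Genes of the mTOR complexes and their regulators were called about as often in each direction. Of 35 tested members, 6 (17.1%) were called higher and 6 (17.1%) lower with miR-99b-5p, MTOR among the latter, beside 11.9% and 11.5% over all genes, and the median was -0.03. RRAGC, a Rag GTPase that brings the complex to lysosomes, was at 31.2, 32.6, 34.3 and 25.7 against 20.7, 19.3, 18.1 and 19.0 CPM (0.68 ± 0.10, adjusted p = 1.15e-05). DEPDC5, a subunit of the inhibitory GATOR1 complex, was higher (0.39 ± 0.08), and SESN1, a sestrin that senses stress and amino acids, was lower (-0.48 ± 0.10). RPTOR, the scaffold of complex 1, was at 46.1, 63.6, 60.0 and 82.5 against 73.8, 71.5, 71.5 and 79.0 CPM, with overlapping libraries (-0.23 ± 0.12, adjusted p = 0.179). Without miR-99b-5p library 7, the highest of its group, RPTOR was called lower (-0.39, adjusted p = 0.0127). A fit of the 8 libraries alone called 3 members lower.

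In insulin and IGF signalling, 3 of 21 members (14.3%) were called higher and 4 (19.0%) lower, beside 11.9% and 11.5% over all genes. IRS2, an adaptor of the insulin receptor (26.7, 27.3, 25.7 and 36.3 against 15.4, 19.2, 16.0 and 18.7 CPM, 0.74 ± 0.12), and the transcription factor FOXO1 (0.67 ± 0.19) were higher with miR-99b-5p. PIK3R2, a regulatory subunit of PI3 kinase (52.5, 60.6, 59.9 and 73.7 against 84.5, 86.4, 89.6 and 100.4 CPM, -0.55 ± 0.11), and the kinase AKT1 (-0.36 ± 0.09) were lower. The IGF-binding proteins IGFBP4 (-0.40) and IGFBP5 (-0.30), named after their values were seen, were lower too. With 1 library left out the adjusted p rose to 0.061 for FOXO1 (miR-100-3p library 4). It rose to at most 0.125 for IGFBP4 (miR-100-3p library 1 or 4, miR-99b-5p library 2 or 7) and 0.11 for IGFBP5 (miR-100-3p library 3 or 4, miR-99b-5p library 2, 3 or 4). The receptor IGF1R was at 63.1, 65.3, 57.3 and 74.5 against 86.4, 79.4, 73.8 and 68.1 CPM, with overlapping libraries, and missed the threshold (-0.24 ± 0.09, adjusted p = 0.059). It was called lower with DESeq2 (adjusted p = 0.0361) and without miR-100-3p library 4 (0.0295) or miR-99b-5p library 7 (0.0192). The numbers called in the list fell to 1 higher without miR-100-3p library 4 and to 2 lower without miR-99b-5p library 2.

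Of 12 tested chromatin remodellers of the ISWI class and their partners, 3 (25.0%) were called higher, beside 11.9% over all genes. SMARCA5 and BAZ2A were the 2 (16.7%) called lower, beside 11.5%. SMARCA1, the other ISWI ATPase, was at 106, 102, 97.1 and 98.9 against 68.2, 78.4, 85.5 and 62.0 CPM (0.46 ± 0.10, adjusted p = 0.000862). CHRAC1, a histone-fold accessory subunit, was at 39.9, 39.5, 37.0 and 34.5 against 25.2, 29.4, 30.5 and 24.1 CPM (0.47 ± 0.10). POLE3, its histone-fold partner, was named after its value was seen (0.42 ± 0.10). The median of the list was 0.12.

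Frizzled receptors moved in both directions. Of 27 tested Wnt pathway genes, 7 (25.9%) were called lower and 2 (7.41%) higher with miR-99b-5p, beside 11.5% and 11.9% over all genes. FZD8, which has a miR-99b-5p heptamer, stood at 0.747, 1.05, 1.07 and 0.676 CPM against 3.33, 3.45, 3.08 and 3.78 CPM (-1.94 ± 0.21, adjusted p = 1.07e-07). FZD6 stood at 15.3, 13.6, 13.7 and 13.8 against 6.33, 7.99, 8.81 and 5.98 CPM, with every miR-99b-5p library above (0.97 ± 0.14). DKK1, a secreted antagonist of Wnt coreceptors, was at 44.6, 49.4, 51.2 and 38.6 against 24.4, 25.9, 20.0 and 30.0 CPM and at 19.0 to 20.3 CPM in the control (0.87 ± 0.13, adjusted p = 8.39e-06). The ligands WNT5A (-1.11 ± 0.24) and WNT11 (-1.03 ± 0.25), named after their values were seen, were lower. With a mean CPM of at least 5 as the filter, 4 members were called lower.

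EPAS1 (ENSG00000116016), which encodes HIF-2 alpha, a hypoxia-inducible factor of sympathetic cells, was the most abundant of the large differences. It stood at 201, 142, 137 and 261 CPM with miR-99b-5p and 690.4, 720.0, 657 and 661 CPM with miR-100-3p (-1.88 ± 0.12, adjusted p = 5.1e-12). The controls were at 738 to 777 CPM, above all 8 libraries, and the fall against them was called with miR-99b-5p (-2.03 ± 0.12) and not with miR-100-3p (adjusted p = 0.538). Its longest UTR holds 2 miR-100-3p heptamers and no miR-99b-5p heptamer.

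HIF1A, the alpha subunit of HIF-1, went the other way, at 710.4, 731, 689 and 735 CPM with miR-99b-5p and 441, 572, 742 and 452 CPM with miR-100-3p. The miR-99b-5p libraries were close together while the miR-100-3p libraries spread, with library 3 above all others. The difference (0.38 ± 0.12, adjusted p = 0.0194) was not called without miR-100-3p library 1 (0.28, adjusted p = 0.0904) or 4 (0.29, adjusted p = 0.0894). Of 9 tested oxygen-sensing genes, 2 (22.2%) were called higher and 3 (33.3%) lower, beside 11.9% and 11.5% over all genes. HIF1AN, the asparaginyl hydroxylase that restrains HIF, was higher (0.31 ± 0.08), and the prolyl hydroxylase EGLN3 was lower (2.16 to 3.6 against 4.79 to 5.09 CPM, -0.75 ± 0.20). EGLN1, the main prolyl hydroxylase, was lower (-0.32), was named after its value was seen, and reached an adjusted p of up to 0.0981 without miR-100-3p library 2 or 3 or miR-99b-5p library 3. The number higher was 1 without miR-100-3p library 1 or 4.

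Glycolysis and hypoxia target genes were mostly higher with miR-99b-5p where called. Of 26 tested, 9 (34.6%) were called higher and 1 (3.85%) lower, beside 11.9% and 11.5% over all genes, with a median of 0.18. PFKFB3, which makes the activator of phosphofructokinase, stood at 17.8, 14.0, 13.3 and 21.9 against 7.25, 6.98, 5.46 and 6.63 CPM, with the control at 5.02 to 5.8 CPM (1.34 ± 0.16, adjusted p = 5.83e-07). The glucose transporter SLC2A1 was at 215, 251, 253 and 227 against 154, 136, 86.7 and 145 CPM, with miR-100-3p library 3 the lowest (0.85 ± 0.15). BNIP3, a mitophagy receptor, rose with miR-99b-5p against the control (0.77 ± 0.07) and was 0.63 ± 0.07 between the mimics. The phosphofructokinase PFKP fell with miR-100-3p against the control (-0.50 ± 0.09) and was 0.67 ± 0.09 between the mimics. VEGFA, the angiogenic factor and the 1 member called lower, was named after its value was seen (-0.18, adjusted p = 0.046). It was not called without any 1 of the 4 miR-100-3p libraries or of miR-99b-5p libraries 3, 4 and 7, with an adjusted p of up to 0.157.

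MYCN (ENSG00000134323), the amplified driver of this line, was lower with miR-99b-5p. It stood at 3244, 3545, 3234 and 3692 CPM with miR-99b-5p, 5928, 5992, 6673 and 6925 CPM with miR-100-3p and 4789.9 to 5283 CPM in the control, with no overlap between any of the groups. The difference was -0.90 ± 0.08, 1.86-fold (adjusted p = 5.14e-09). It was made of a fall with miR-99b-5p (-0.56 ± 0.08, adjusted p = 1.69e-05) and a rise with miR-100-3p (0.34 ± 0.08, adjusted p = 0.0123) against the control. Its longest UTR holds neither heptamer.

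Of the 26 members of the MYCN network, with its dimer partners and known targets, 8 (30.8%) were called higher and MYCN was the 1 called lower. The shares over all genes were 11.9% and 11.5%. The median of the network was 0.09 (0.16 without miR-99b-5p library 2). MXI1, a MAX partner that opposes MYC proteins, was at 67.1, 66.4, 63.3 and 72.5 against 37.2, 43.8, 46.7 and 36.2 CPM (0.72 ± 0.09, adjusted p = 6.11e-07). MLX, a partner of the related MONDO proteins, was higher (0.32 ± 0.07). NOP56, a nucleolar protein and a known MYC target, was at 541, 528, 536 and 481 against 439, 438, 427 and 425 CPM (0.27 ± 0.05). A fit of the 8 libraries alone called 3 members higher. The number lower was 2 without miR-100-3p library 2 or miR-99b-5p library 7 and 3 without miR-100-3p library 3.

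Sympathetic identity genes moved in both directions. Of 28 tested adrenergic genes, 8 (28.6%) were called higher and 4 (14.3%) lower with miR-99b-5p, beside 11.9% and 11.5% over all genes. SLC6A2, the noradrenaline transporter, was at 129.9, 145, 144 and 119 against 90.4, 81.7, 72.7 and 84.5 CPM (0.71 ± 0.09, adjusted p = 6.24e-07). RET, the receptor kinase for GDNF family ligands, was at 273, 236, 238 and 208 against 169, 159.7, 123 and 135 CPM, and fell with miR-100-3p against the control (-0.68 ± 0.11) while miR-99b-5p was not called against it (adjusted p = 0.923). The granin CHGB was higher (0.38 ± 0.08).

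Against the control, 5 adrenergic genes were called higher and 8 lower with miR-99b-5p, and 0 higher and 7 lower with miR-100-3p, with medians of -0.01 and -0.28. The 5 were 2 or 3 without miR-99b-5p library 3 or 7 or control library 1, 2 or 4. The 7 were 2 to 4 without miR-100-3p library 2 or 3 or any 1 of the 4 control libraries, and the 0 was 1 without miR-100-3p library 1 or control library 4.

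On the lower side, SLC18A1, a vesicular monoamine transporter, was at 24.0, 21.4, 19.3 and 31.3 against 53.9, 51.3, 35.2 and 47.6 CPM, with the control at 45.2 to 64.4 CPM (-0.97 ± 0.17, adjusted p = 0.000108). DDC, the decarboxylase that makes dopamine, was at 207, 203, 200.4 and 279 against 317, 341, 322 and 309.7 CPM (-0.54 ± 0.08). Its miR-99b-5p library 7 was above the other 3 of the group and still below the miR-100-3p libraries. The factor KLF7, named after its value was seen, was also lower (-0.37 ± 0.09). ALK, a receptor kinase mutated in neuroblastoma, was at 58.2 to 83.8 against 69.5 to 75.7 CPM and was not called (-0.11 ± 0.10, adjusted p = 0.484).

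Genes of neuronal differentiation were more often higher with miR-99b-5p, 9 of 32 (28.1%) against 3 (9.38%) lower, with a median of 0.18. The shares over all genes were 11.9% and 11.5%. DCX (ENSG00000077279), a microtubule protein of migrating neurons, stood at 44.7, 63.2, 63.8 and 81.6 CPM with miR-99b-5p and 19.4, 25.4, 29.8 and 23.9 CPM with miR-100-3p. The control was at 19.5 to 19.9 CPM, and miR-99b-5p library 7 was the highest of all (1.37 ± 0.15, adjusted p = 1.62e-07). SCG2, a secretogranin, was at 89.2, 73.6, 65.5 and 70.3 against 33.4, 37.8, 45.7 and 33.0 CPM (1.00 ± 0.10), and STMN4, a neuronal stathmin, at 31.7, 28.6, 27.6 and 20.3 against 16.2, 13.8, 15.1 and 13.9 CPM (0.88 ± 0.11). INA, the intermediate filament internexin, was lower, at 198, 190.3, 183 and 214 against 245, 280.0, 338 and 254 CPM (-0.51 ± 0.08), and rose with miR-100-3p against the control (0.34 ± 0.08). The growth cone protein GAP43 (-0.32 ± 0.09) and the adhesion protein CNTN2 (-0.21) were the other 2 called lower, named after their values were seen. CNTN2 was not called without miR-100-3p library 1 or 2 or any 1 of the 4 miR-99b-5p libraries (adjusted p of up to 0.152). Against the control 9 members were called higher with miR-99b-5p and 7 with miR-100-3p.

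Cholesterol genes were mostly lower with miR-99b-5p. Of 27 tested members of synthesis and uptake, 18 (66.7%) were called lower and 2 (7.41%) higher, beside 11.5% and 11.9% over all genes. The median was -0.35. With 1 library left out, 12 to 18 members were called lower. HMGCS1 (ENSG00000112972), the synthase that feeds the mevalonate pathway, stood at 174, 177, 175 and 163 CPM against 286, 289, 357 and 313 CPM (-0.85 ± 0.10, adjusted p = 3.19e-07). The control, at 209 to 245 CPM, lay between, with a fall for miR-99b-5p (-0.39 ± 0.10) and a rise for miR-100-3p (0.47 ± 0.10).

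FDFT1, squalene synthase, was at 98.1, 101, 103 and 80.7 against 132, 129, 146 and 135 CPM (-0.50 ± 0.08). ACAT2, an acetyl-CoA acetyltransferase at the entry of the pathway, was at 57.9, 58.9, 56.4 and 46.6 against 73.6, 74.0, 78.5 and 75.7 CPM (-0.46 ± 0.09). In both, miR-99b-5p library 7 was the lowest of all. STARD4, a carrier of cholesterol between membranes, was the exception by its size, at 164, 169.9, 179.8 and 147 against 70.1, 76.9, 75.7 and 72.9 CPM and 93.9 to 115 CPM in the control (1.16 ± 0.14, adjusted p = 7.66e-07). INSIG2, which holds the sterol sensor in the endoplasmic reticulum, was the other member called higher, named after its value was seen (0.50 ± 0.13). Against the control, 12 members were called lower and 2 higher with miR-99b-5p (8 to 11 lower with 1 library left out), and 3 were called higher with miR-100-3p (2 to 4). The 1 called lower with miR-100-3p, STARD4, was not called without any 1 of the 4 miR-100-3p libraries or control library 1, 2 or 4.

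**Figure D5:**
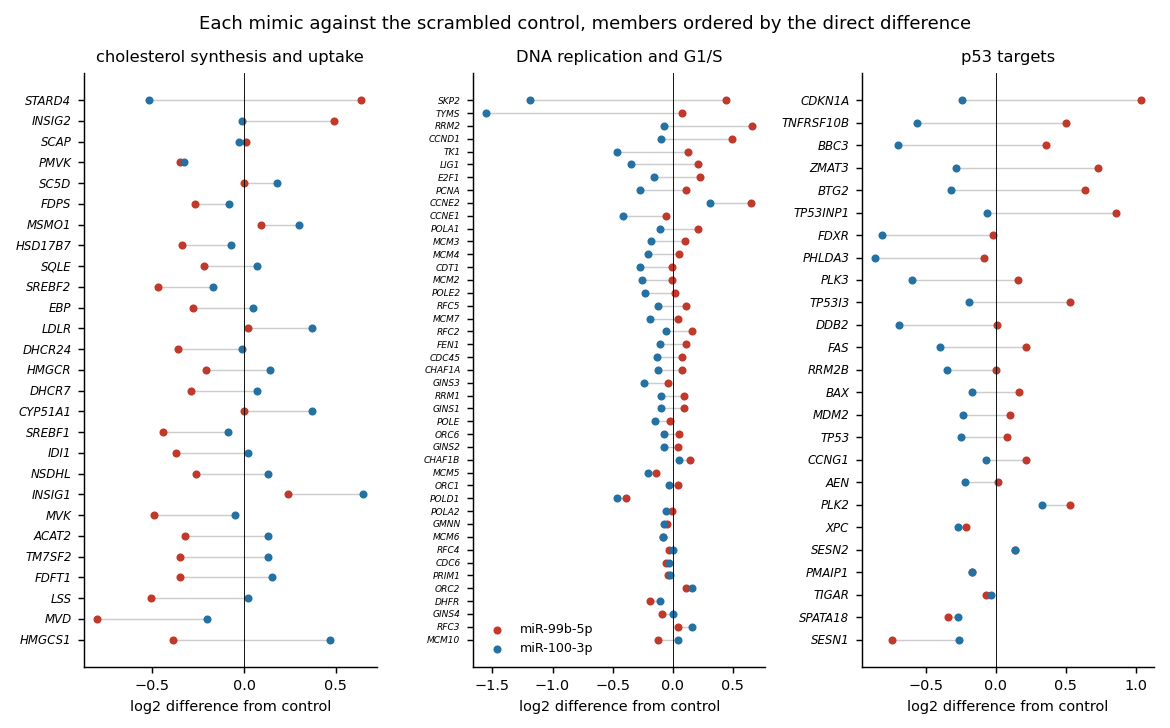
Log2 difference of each mimic from the scrambled control (x axis), miR-99b-5p in red and miR-100-3p in blue, for tested members of 3 lists, ordered by the direct difference. Red lies left of blue for most cholesterol genes and right of blue for most DNA replication genes and p53 targets; both mimics share the same control libraries.

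DNA replication and G1/S genes were called in 1 direction. Of 43 tested, 22 (51.2%) were higher with miR-99b-5p and 0 lower, with a median of 0.20, beside 11.9% and 11.5% over all genes. TYMS (ENSG00000176890), thymidylate synthase, stood at 265, 255, 268 and 227 CPM with miR-99b-5p and 91.0, 92.3, 72.0 and 73.2 CPM with miR-100-3p. The control, at 216 to 259 CPM, overlapped miR-99b-5p, and the difference of 1.63 ± 0.07 (adjusted p = 9.34e-15) came with a fall with miR-100-3p against it (-1.55 ± 0.07). ENOSF1 overlaps TYMS on the opposite strand, and whether the counting used strand is not stated. The longest annotated UTR of TYMS holds no miR-100-3p heptamer.

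RRM2, the small subunit of ribonucleotide reductase, was laid out differently, at 638, 599, 652 and 631 against 390.0, 394, 377 and 351 CPM with the control at 380.1 to 410.4 CPM (0.74 ± 0.06). It rose with miR-99b-5p against the control (0.66 ± 0.06). CCND1, cyclin D1, showed the same layout, at 379.8, 389, 347 and 372 against 244, 257, 247 and 242 CPM and 242 to 291 CPM in the control (0.59 ± 0.06, adjusted p = 3.03e-08). With SKP2, these were the 4 members with the smallest p. Against the control, 5 members were higher with miR-99b-5p and 9 lower with miR-100-3p.

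The count of 22 was 13 without miR-100-3p library 3, which had the highest mitochondrial share, and 10 in a fit of the 8 libraries alone. The 9 lower with miR-100-3p were 3 to 5 without miR-100-3p library 3 or 4 or control library 1, 2 or 4. Mitosis genes stood near the background, with 3 of 32 (9.38%) higher and 2 (6.25%) lower, beside 11.9% and 11.5% over all genes. Their median was 0.03. PRC1, a crosslinker of the central spindle, was at 227, 207, 209.8 and 214 against 145, 162, 149 and 134 CPM (0.54 ± 0.06) and fell with miR-100-3p against the control (-0.44 ± 0.06). The kinase CDK1 was higher (0.46 ± 0.10), and the kinase AURKA (-0.30 ± 0.07) and the anaphase activator CDC20 (-0.34 ± 0.09) were lower. The kinesin KIF2C, named after its value was seen (0.16), was not called without miR-100-3p library 2, 3 or 4 or miR-99b-5p library 2, 3 or 4 (adjusted p of up to 0.101).

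Target genes of p53, the tumour suppressor that arrests or kills damaged cells, were mostly higher with miR-99b-5p. Of 25 tested, 14 (56.0%) were called higher and 1 (4.0%) lower, beside 11.9% and 11.5% over all genes, with a median of 0.34. TNFRSF10B, the death receptor DR5, stood at 125, 134, 144 and 115 CPM with miR-99b-5p and 71.2, 66.1, 49.6 and 60.9 CPM with miR-100-3p. The control was at 76.0 to 98.4 CPM, and against it the gene rose with one mimic (0.50 ± 0.10) and fell with the other (-0.56 ± 0.10). The difference was 1.06 ± 0.10 (adjusted p = 9.35e-09).

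ZMAT3, an RNA-binding growth inhibitor, was at 153, 149.5, 166 and 138 against 77.9, 82.1, 75.4 and 64.6 CPM (1.02 ± 0.10), and BTG2, an antiproliferative cofactor, at 37.6, 41.0, 46.0 and 39.2 against 21.9, 19.6, 18.2 and 24.4 CPM (0.95 ± 0.11). Both rose with miR-99b-5p against the control (0.73 ± 0.10 and 0.64 ± 0.11). DDB2, a sensor of ultraviolet damage, was at 15.3 to 20.2 against 10.1 to 11.9 CPM (0.70 ± 0.11) and fell with miR-100-3p against the control (-0.69 ± 0.11). CDKN1A (ENSG00000124762), the cell cycle inhibitor p21, was named after its value was seen. It stood at 64.5, 79.0, 94.6 and 64.1 against 38.7, 28.1, 23.7 and 32.8 CPM (1.29 ± 0.23, adjusted p = 0.000108), the largest difference of the list. SESN1, given above, was the 1 member called lower. Against the control, 7 members were higher and 1 lower with miR-99b-5p (2 lower without miR-99b-5p library 2), and 0 higher and 5 lower with miR-100-3p. The 5 were 3 without miR-100-3p library 3 or control library 1 or 4.

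Of 15 BCL2 family genes, 3 (20.0%) were called higher and HRK was the 1 (6.67%) called lower, beside 11.9% and 11.5% over all genes. HRK, a BH3-only activator of cell death in neurons, was at 4.95, 4.64, 4.06 and 5.04 against 15.1, 17.6, 22.8 and 20.6 CPM, with the control at 9.56 to 14.3 CPM. BBC3, the p53-induced activator PUMA, was at 4.0, 7.01, 7.66 and 7.8 against 3.53, 1.93, 2.11 and 4.67 CPM, with 1 miR-99b-5p library inside the miR-100-3p range (1.06 ± 0.30, adjusted p = 0.0102). BCL2, the death inhibitor, was at 34.6, 31.5, 29.3 and 24.3 against 24.4, 26.1, 18.8 and 20.5 CPM and fell with miR-100-3p against the control at 35.6 to 42.1 CPM (-0.79 ± 0.13). Between the mimics (0.42 ± 0.13, adjusted p = 0.0219) BCL2 was not called without miR-100-3p library 3 or 4 or miR-99b-5p library 2 or 3, with adjusted p of up to 0.0856. BCL2L13 (0.27 ± 0.08) was not called without miR-100-3p library 3 (0.19, adjusted p = 0.0542), and the number higher was then 1.

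Interferon-induced genes were low in these cells, and 15 of 26 with a row in the table could be tested. Of these, 5 (33.3%) were called higher and 1 (6.67%) lower with miR-99b-5p, with a median of 0.33. The shares over all genes were 11.9% and 11.5%. OAS1, an antiviral oligoadenylate synthetase, was at 5.7, 4.75, 4.33 and 3.44 CPM with miR-99b-5p, 1.7, 1.26, 1.41 and 1.4 CPM with miR-100-3p and 2.82 to 3.39 CPM in the control (1.65 ± 0.17, adjusted p = 2.85e-08). IFIT1, which binds foreign RNA ends, was at 1.41 to 1.58 against 0.326 to 0.757 CPM with the control at 1.23 to 1.52 CPM (1.70 ± 0.23). OAS3 was at 18.1, 18.2, 15.7 and 14.1 against 11.1, 8.91, 6.87 and 6.45 CPM (0.99 ± 0.16). All 3 fell with miR-100-3p against the control (-1.11 ± 0.17, -1.59 ± 0.24 and -0.92 ± 0.16).

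IRF9, a subunit of the interferon-activated factor, was higher (0.78 ± 0.17) and rose with miR-99b-5p against the control (0.65 ± 0.17). The RNA sensor RIGI (0.72) and the factor STAT2, the 1 member called lower (-0.32), were named after their values were seen. RIGI was not called without miR-100-3p library 2 or 4 (adjusted p of up to 0.0572), nor STAT2 without miR-100-3p library 1 or 2 or miR-99b-5p library 4 (up to 0.106). With a mean CPM of at least 5 as the filter, 1 member was called higher, and the median was 0.13. It was 0.12 without miR-99b-5p library 7.

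Genes of the microRNA machinery were called in both directions, 5 of 24 (20.8%) higher and 6 (25.0%) lower, with a median of 0.03. The shares over all genes were 11.9% and 11.5%. TRIM71, given above, was among the lower. HENMT1, a methyltransferase of small RNA ends, was at 1.02, 1.11, 1.2 and 1.41 against 5.22, 3.78, 3.96 and 4.3 CPM, with the control at 4.42 to 5.8 CPM (-1.86 ± 0.20, adjusted p = 8.61e-08). TNRC6A, the GW182 scaffold of silencing, was at 237, 276, 245 and 264 against 167, 189, 195 and 172 CPM (0.50 ± 0.07) and rose with miR-99b-5p (0.69 ± 0.07). XPO5, which exports precursors from the nucleus and has a miR-100-3p heptamer, fell with miR-100-3p against the control (-0.28 ± 0.06) and was 0.39 ± 0.06 between the mimics. TNRC6B, a paralogue of TNRC6A (-0.62), and the Argonaute AGO1 (-0.30) were called lower, and the Argonaute AGO4 (0.34) higher. They were named after their values were seen, and their values with a library left out are not reported here. The number higher was 2 without miR-100-3p library 3, and 3 without miR-100-3p library 4 or miR-99b-5p library 3 or 4.

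Of the genes that host the family, MIR100HG was at 2.58, 2.53, 2.26 and 1.78 against 2.68, 3.28, 4.84 and 2.9 CPM and was not called (-0.56 ± 0.24, adjusted p = 0.0937). With the libraries' GC slope as a covariate, chosen after seeing the data, it was called lower (-0.60, adjusted p = 0.0363). SPACA6, which hosts MIR99B, was at 4.14, 4.11, 3.26 and 4.55 against 2.29, 1.85, 1.41 and 3.32 CPM (0.81 ± 0.24, adjusted p = 0.0162). Its libraries overlapped, and it was not called without miR-100-3p library 2 (0.73, adjusted p = 0.0506) or 3 (0.66, adjusted p = 0.061). A transfected mimic is not read from these genes.

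Of 18 subunits of the vacuolar proton pump, which acidifies lysosomes, 5 (27.8%) were called lower and 0 higher, with a median of -0.03. The shares over all genes were 11.5% and 11.9%. ATP6AP1 (ENSG00000071553), an accessory subunit needed for assembly of the pump, was at 21.7, 19.2, 18.3 and 24.3 against 80.6, 66.8, 60.6 and 74.5 CPM, with the control at 71.1 to 80.3 CPM (-1.76 ± 0.12, adjusted p = 4.24e-11). It fell with miR-99b-5p against the control (-1.84 ± 0.12), and its longest UTR holds no miR-99b-5p heptamer. ATP6V1C1 was at 57.6, 47.9, 53.3 and 52.7 against 88.5, 90.9, 90.5 and 79.5 CPM (-0.72 ± 0.08) and ATP6V1B2 at 186, 172, 183 and 179.9 against 227, 242, 229.7 and 218 CPM (-0.35 ± 0.06). ATP6V1E1 (-0.21 ± 0.06) was not called without miR-99b-5p library 7 (-0.15, adjusted p = 0.0694). ATP6V1H (-0.27), named after its value was seen, was not called without miR-100-3p library 1 or 4 or miR-99b-5p library 3 or 7 (adjusted p of up to 0.0838). Without miR-99b-5p library 7 the number lower was 3, and without miR-100-3p library 2 the number higher was 1.

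Nuclear genes of the respiratory chain had small differences, and the called ones were lower with miR-99b-5p. Of 49, 10 (20.4%) were called lower and 0 higher, with a median of -0.10. Over all genes, 11.5% were called lower and 11.9% higher. NDUFB5, a complex I subunit, was at 69.0, 59.7, 66.7 and 60.3 against 95.7, 87.7, 86.4 and 86.3 CPM (-0.48 ± 0.08, adjusted p = 2.61e-05), and NDUFV2, another, at 107, 97.9, 101 and 85.2 against 112, 127, 131 and 122 CPM (-0.33 ± 0.07). NDUFB10 (-0.41 ± 0.12) was not called without miR-99b-5p library 7 (-0.36, adjusted p = 0.0513). The count of 10 was 4 without that library, 6 without miR-99b-5p library 3 and 5 in a fit of the 8 libraries alone. Without miR-100-3p library 1, 1 member was called higher.

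Mesenchymal genes, which mark the other cell state of neuroblastoma, did not move as one, with 4 of 17 (23.5%) called higher and 3 (17.6%) lower. The shares over all genes were 11.9% and 11.5%. VIM, vimentin, was at 82.3, 77.8, 80.9 and 63.1 against 31.0, 37.0, 35.9 and 34.0 CPM (1.14 ± 0.14, adjusted p = 3.66e-07), while CD44 was lower as described. NOTCH3 was higher (0.93 ± 0.23) and fell with miR-100-3p against the control (-1.02 ± 0.23), and the AP-1 factor FOSL2 was lower (-0.51 ± 0.08). The matrix protein SPARC (0.24) and the factors ZEB1 (0.34) and TWIST1 (-0.57) were the others called, named after their values were seen. None of these 3 kept its call when libraries were left out 1 at a time, with adjusted p of up to 0.141, 0.165 and 0.15. They lost it without miR-100-3p library 2 (SPARC), 3 (SPARC, TWIST1) or 4 (all 3) or 1 (ZEB1), and without miR-99b-5p library 2 or 3 (all 3), 4 (SPARC, ZEB1) or 7 (ZEB1). The number higher was 2 without miR-100-3p library 4 or miR-99b-5p library 2, 3 or 4.

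Markers of other cell types were near the floor. The endothelial VWF was at 0.747, 0.897, 0.933 and 1.23 against 3.2, 2.61, 2.73 and 3.92 CPM (-1.72 ± 0.22, adjusted p = 1.5e-06) and the epithelial KRT19 at 1.7, 1.27, 1.2 and 1.23 against 3.4, 2.02, 3.35 and 2.71 CPM (-1.09 ± 0.21, adjusted p = 0.000314), the 2 of 5 tested markers that were called, both lower with miR-99b-5p. Over all genes, 11.5% were called lower. COL1A2, DCN and S100B were at 0 in all 12 libraries of the mimics and the control. In bulk samples fewer cells of a type and less RNA per cell cannot be told apart.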

How the data were processed

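Kelly cells were transfected with a mimic or a scrambled sequence, and poly(A) RNA was sequenced from 28 libraries in 7 groups of 4. The authors deposited 1 table of expected counts per gene, 30887 rows, of which 951 were 0 in all libraries and 15.5% of non-zero values were not whole. Reads were aligned with STAR to hg19, per the submitters' processing notes. The counting tool, its annotation and its use of strand are not given in the sources used here.

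Expected counts were rounded and fitted in R 4.3.3 with edgeR 4.0.16 (filterByExpr, TMM scaling, quasi-likelihood test over all 28 libraries, 21 residual degrees of freedom). The contrast was miR-99b-5p minus miR-100-3p, with Benjamini-Hochberg adjustment across the 15058 genes tested. The coefficient of variation from the common dispersion was 12.2%. Standard errors come from the F statistic, and CPM use the scaled library sizes. The script was tested on simulated data. Sites are exact seed matches, looked for in 1 UTR a gene (the longest) from the GENCODE v29 annotation of GRCh38. That is a later build than the authors', so sequences and coordinates are of GRCh38 only. Motifs were searched along the messenger RNA strand.

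The 23 gene lists hold 583 genes, of which 568 have a row. The members and lists were chosen with earlier results of these data known. Genes were named by a rule, except where the text says otherwise: the 10 largest called differences each way with a mean of at least 4 CPM and no overlap, the 6 site genes with the smallest p for each mimic, up to 4 called members a list with the smallest p, and MTOR, IGF1R, FGFR3, SMARCA5, RPTOR, EPAS1, MYCN, ALK and the host genes. Some genes that meet the rule, and some called list members, are not reported here. Alternatives were DESeq2 1.42.0, other scalings and filters, the 8 libraries alone, a replicate block, a GC slope covariate and leaving out each library.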

Additional observations from a re-analysis of the deposited data

Results flagged for a closer look

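Of 390 sets of 4 libraries examined, 23 had 1 library apart from the other 3 by more than Dixon's critical value allows. Chance gives about 1 in 20. Among the miR-99b-5p libraries, library 7 was apart for IRS2 (36.3 CPM), DDC (279 CPM), BCL2L13 (72.2 CPM) and SPARC (166 CPM). Library 2 was apart for FZD6 (15.3 CPM), BBC3 (4.0 CPM), KRT19 (1.7 CPM) and CNTN2 (28.2 CPM), and this library also had the lowest GC slope. Among the miR-100-3p libraries, library 4 was apart for ADRA2A (25.9 CPM) and PDE4B (47.0 CPM), library 2 for BNIP3 (89.5 CPM) and library 1 for NDUFB5 (95.7 CPM).

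In the control, library 4 was apart for SMARCA5 (209 CPM), SMARCD1 (194 CPM), TRIM71 (68.6 CPM), SLC6A2 (111 CPM), FOSL2 (47.6 CPM) and ATP6V1H (26.8 CPM). Control library 5 was apart for NR4A3 (8.09 CPM), BAZ2A (262 CPM), SESN1 (14.7 CPM) and NDUFB10 (47.4 CPM), and control library 1 for CREB5 (1.95 CPM).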

How the results depend on the processing

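The values of 127 genes described were followed through the alternatives, and no called value changed sign. Between the mimics, 103 kept their side of the threshold under every alternative. Another 20 lost their call under at least 1, and 4 gained one. With 1 library left out, 2879 to 3325 genes were called between the mimics (1452 to 1674 higher, 1427 to 1675 lower). For miR-100-3p against the control, 551 to 900 genes were called, 252 to 452 higher and 298 to 452 lower. Without a filter on low counts that comparison had 564 genes, 227 of them higher. With a mean CPM of at least 5, 68 genes were at least 2-fold higher and 104 lower between the mimics.

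The GC slope covariate, chosen after seeing the data, gave 2780 genes higher between the mimics, and 1816 for miR-100-3p against the control (806 higher, 1010 lower). Together with a replicate block it gave 5588 genes between the mimics (2835 higher, 2753 lower), and 2082 for miR-100-3p against the control (977 higher, 1105 lower). The cause was not tested. Same-numbered libraries of the mimics had deviations with r of 0.208, -0.0815 and 0.211, and differently numbered ones -0.429 to 0.265. With the same-numbered control, r was 0.127 and 0.167 for miR-99b-5p libraries 2 and 4. It was -0.0322, 0.00914 and 0.281 for miR-100-3p libraries 1, 2 and 4. No label says that equal numbers mark a pair, so the main fit did not pair them, and a shared batch was not tested. The block alone gave 3783 genes and called ALK (-0.23, adjusted p = 0.00856), RPTOR (-0.40, adjusted p = 0.00699) and IGF1R (-0.27, adjusted p = 0.00498) lower by edgeR.

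The median difference of genes with a miR-99b-5p site was -0.10 when a hexamer sufficed. For miR-100-3p sites it was 0.05 with hexamers, 0.11 with the heptamer followed by A and 0.05 with the GC slope and the block. Depth limits genes under about 4 CPM, and the mimics' own levels were not measured.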
